A study of Mus musculus with 14 samples.

Results

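Whole mouse lungs at postnatal day 10 (P10) were set against both neighbouring time points of a developmental series, P2 and Adult (postnatal day 30), and the genes described here are those that stood apart at P10 in the same direction from both. P10, P2 and Adult had 2 arrays each, 6 of the 14 arrays of the series. The other 8 arrays came from embryonic days E12, E14, E16 and E18. The labels give ICR mice with no treatment or genotype for every group, and the RNA came from pooled whole lungs dissected by hand and washed in PBS. The number of lungs in a pool was not stated, nor whether the 2 arrays of a time point held separate pools, so the replicate spread may leave out part of the variation between animals. Every value below is a deposited log2 level of an oligonucleotide array. Where several probe sets shared a gene symbol, the brightest one on average across the series stood for the gene. A gene was taken as measured if at least 1 of its P10, P2 and Adult means exceeded 7, which 11036 of 18193 genes did.

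P10 lies in the phase of alveolarization, in which new septa grow out from the walls of the primitive saccules and divide them into alveoli. Septa rise at sites where alveolar myofibroblasts, which are driven by PDGF from the epithelium, lay down elastin and other matrix at the septal tip. The capillary bed, its pericytes and the thinning epithelium follow the ridge. In the days after birth the airway epithelium, resident leukocytes and pleural mesothelium also mature, while proliferation slows towards adulthood.

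The surfactant gene Sftpc read 14.80 and 14.76 on the P10 arrays, 14.82 and 14.81 at P2 and 14.79 and 14.83 in Adult. The ciliated cell marker Tekt1 read 5.97 and 6.05 at P10, 6.94 and 6.71 at P2 and 7.17 and 6.86 in Adult. Of the markers checked for other tissues, those of liver (Alb, Afp, Apoa1), esophagus (Krt4, Krt13) and thymus (Dntt, Rag1, Ptcra) read at most 6.4 on these 6 arrays, and the brown fat marker Ucp1 at most 4.77. Cidea, another brown fat marker, reached 6.74 and 6.66 in Adult. Heart muscle genes were present: the 21 measured of 25 had a median level of 8.03 and 8.14 at P10, against 8.91 and 8.64 at P2 and 9.10 and 9.03 in Adult. The labels give female for every sample, but the arrays went against them. Xist, which is expressed from the inactive X chromosome, read 7.41 and 6.88 at P10 and 7.26 and 7.34 at P2, against 12.65 and 12.84 in Adult. The Y-linked gene Eif2s3y read 8.35 and 8.47 at P10 and 8.61 and 8.5 at P2, against 3.60 and 2.86 in Adult. P10 and P2 arrays therefore showed Y-linked RNA and Adult arrays did not, so that age and sex cannot be told apart between P10 and Adult. A transient call needs both differences. Of the high genes 6 (1.6%) and of the low genes 13 (3.39%) lay on chromosome X, against 2.96% of measured genes. On chromosome Y 0 were called, and only 3 genes were measured there. These counts do not cover genes on other chromosomes that differ by sex, and a part of sex in the calls was not tested.

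**Figure D1:**
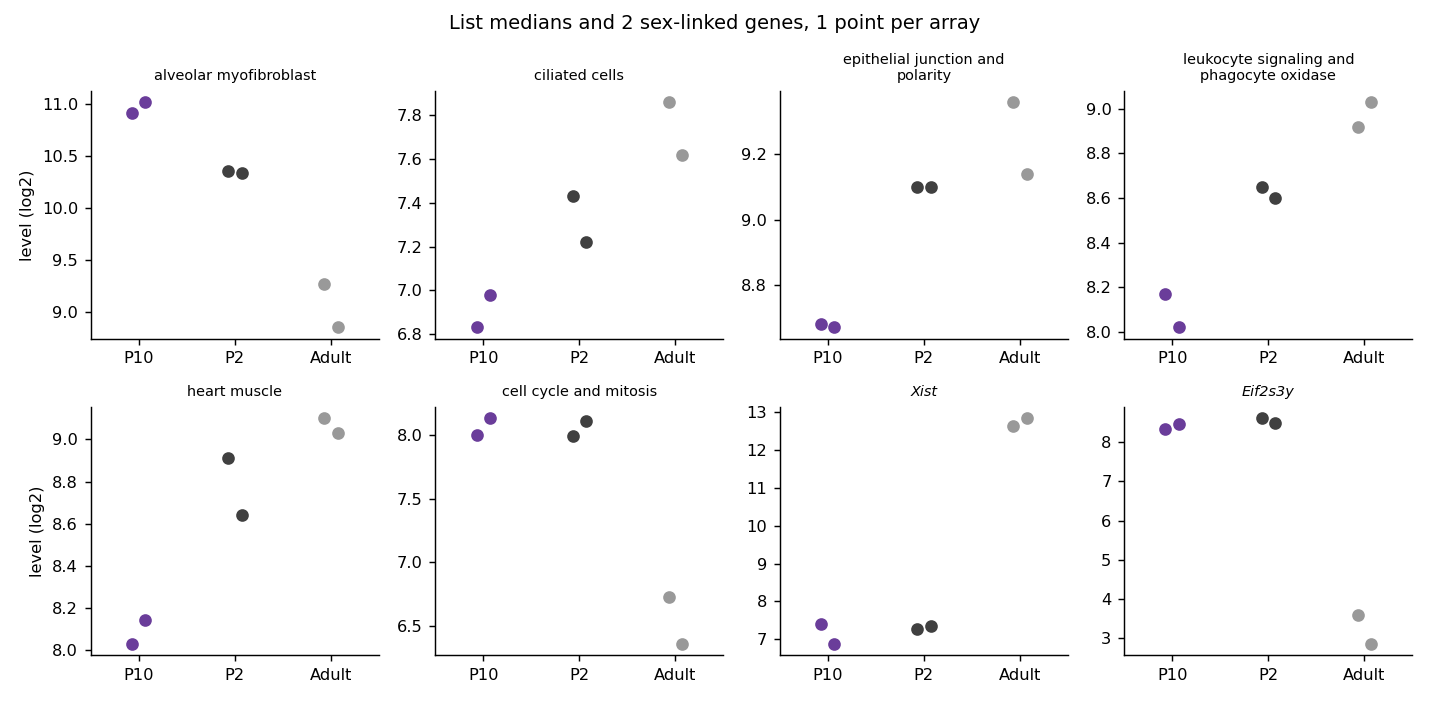
Median log2 level of 6 gene lists and the log2 level of Xist and Eif2s3y, with 1 point for each array of P10, P2 and Adult. The myofibroblast median is highest at P10 (10.92 and 11.02), the ciliated, epithelial junction, leukocyte and heart medians are lowest at P10, and both sex-linked genes set Adult apart from P10 and P2. The epithelial junction and leukocyte lists were gathered after the values were seen, so their low medians at P10 are no separate result.

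A gene was called transiently high or low at P10 when P10 minus P2, P10 minus Adult and P10 minus the mean of both all had the same sign, each with an adjusted p under 0.05 in limma over all 14 arrays. Of the measured genes 374 (3.39%) were transiently high and 383 (3.47%) transiently low. P10 alone was higher than P2 in 7.02% of measured genes and lower in 5.78%, and it was higher than Adult in 21.2% and lower in 21.9%. The size of a transient change is given as the smaller of the 2 differences from P2 and Adult. Its median was 0.54 for the high genes and 0.58 for the low genes, and it reached 1, a doubling, in 37 high and 35 low genes. The 2 P10 arrays lay above all 4 neighbouring arrays in every high gene and below them in every low gene, a condition that 14.6% and 15.1% of measured genes met. Among high genes 39 passed the level filter only through P10, since P2 and Adult were both at or under 7, and among low genes 116 had a P10 mean at or under 7.

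**Figure D2:**
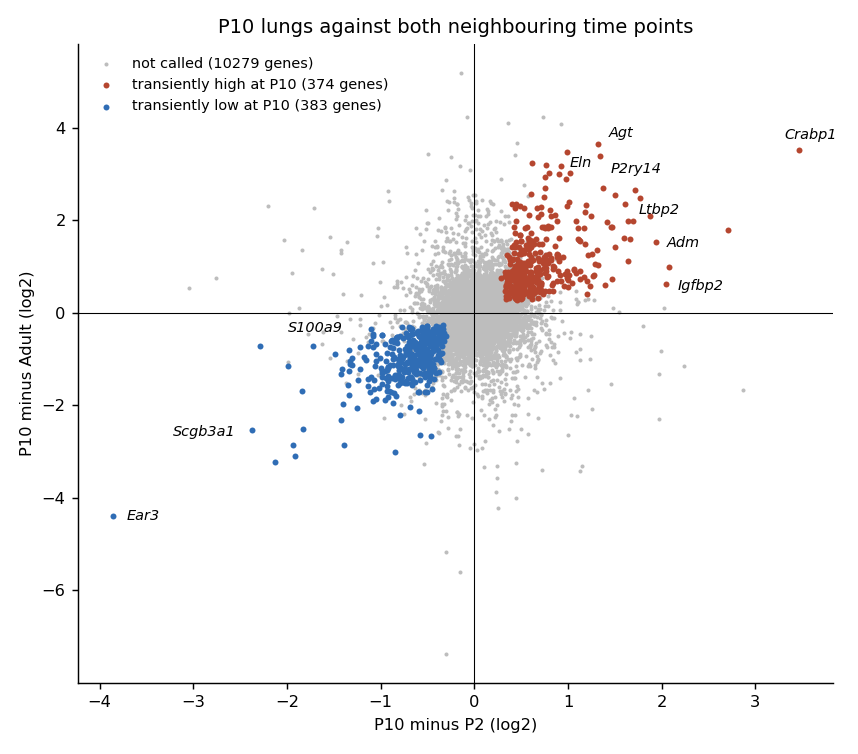
P10 minus P2 (horizontal axis, log2) against P10 minus Adult (vertical axis, log2) for 11036 measured genes, with 374 transiently high genes in red and 383 transiently low genes in blue. Crabp1 lies at 3.46 and 3.52 and Ear3 at -3.86 and -4.40, and the vertical spread is wider than the horizontal one.

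The calling rule had already placed P10 above P2 and Adult in the high genes and below both in the low genes. The same P10 arrays enter the comparisons with embryonic time points, so the shares below are a description and lend the calls no support. Of the high genes, 265 (70.9%) had their highest mean of the 7 time points at P10, against 11.1% of all measured genes. In 217 (58.0%) P10 was above each of the 4 embryonic time points at an adjusted p under 0.05, against 10.7% of all measured genes. The highest mean was at E12 in 64 high genes (17.1%, against 24.8% of all measured genes) and at E14 in 23 (6.15%, against 11.3%). The low genes had another shape. P10 was the lowest of the 7 time points in 89 (23.2%, against 8.31% of all measured genes). The lowest mean lay at E12 in 190 (49.6%, against 28.2%) and at E14 in 80 (20.9%, against 9.03%). Their highest mean was in Adult in 157 (41%, against 26.8% of all measured genes) and at E18 in 137 (35.8%, against 14.4%). P10 was below E18 at an adjusted p under 0.05 in 295 (77.0%, against 19.4%). Their median level ran 7.05, 7.17, 7.70, 8.71, 8.51, 7.81 and 8.77 over the 7 time points from E12 to Adult. P2 and Adult did not differ at an adjusted p under 0.05 in 190 of the high (50.8%) and 214 of the low genes (55.9%). That was close to the 54.9% of all measured genes. Adult was below P2 in 164 high genes (43.9%, against 22% of all measured genes) and above it in 149 low genes (38.9%, against 23.1%).

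Further probe sets of the same genes could be read beside the chosen one. For 161 high genes there were 246 further measured probe sets, of which 234 (95.1%) lay above both neighbours at P10 and 111 were called high themselves. For 106 low genes there were 155, of which 145 (93.5%) lay below both and 76 were called low. None of them was called in the opposite direction. Further probe sets of a gene are not independent samples, since they were read from the same RNA.

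The calls depended on single arrays more than the directions did. Without P10 replicate 2, P2 replicate 1 or P2 replicate 2 the high genes numbered 138, 159 and 166, and without the same arrays the low genes numbered 224, 143 and 209. Without any one of the 6 arrays 113 high and 107 low genes kept their call. Unless arrays are named beside it, each gene named below as high or low kept its call without any one of them. In whole-lung RNA, fewer cells of a type and less RNA per cell cannot be told apart.

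The gene with the largest transient rise was Crabp1, a cytosolic carrier of retinoic acid. It read 8.35 and 8.40 at P10, against 5.14 and 4.70 at P2 and 4.70 and 5.0 in Adult. Both P10 arrays lay above all others of the series, including E14, whose mean of 7.06 was the next highest. P10 exceeded the mean of its neighbours by 3.49 ± 0.17 (SE; adjusted p = 1.42e-07, limma), at least 11-fold over either one. Crabp1 passed the level filter of 7 through P10 only. The fold rests on low neighbour means, 4.92 at P2 and 4.85 in Adult.

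Prokr2, a receptor for prokineticin peptides, read 7.03 and 7.14 at P10, against 5.15 and 5.28 at P2 and 5.16 and 4.84 in Adult, and its embryonic means lay between 4.79 and 4.98. Cemip, which breaks down hyaluronan, read 7.30 and 7.57 at P10, 5.75 and 5.57 at P2 and 5.04 and 4.88 in Adult. Itih5, whose protein binds hyaluronan, read 10.29 and 10.55 at P10, 8.82 and 8.81 at P2 and 8.20 and 7.93 in Adult. In each of these 3 genes the P10 arrays stood clear of the 4 neighbours by more than 1. The further genes among the 15 largest rises were Plcxd3, A2m, Havcr1, Ltbp2, Plat, Rgs5, Adm, Megf10, Slitrk6, Pdgfrl and Ntrk3, with sizes between 1.43 and 1.79. All of these but A2m and Slitrk6 had their highest mean of the 7 time points at P10. Of the 15, Crabp1, Prokr2, Plcxd3, Cemip, A2m, Havcr1, Megf10, Slitrk6 and Ntrk3 passed the level filter only through P10. For such genes the filter itself favours high calls. Slitrk6, a neuronal membrane protein, had an E12 mean of 9.62 and a P10 mean of 8.43. A2m, a protease inhibitor with an E16 mean of 8.36 and a P10 mean of 8.17, lost its call without P10 replicate 2, P2 replicate 1 or P2 replicate 2, with a difference from the neighbour mean that stayed between 2.11 and 2.27.

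**Figure D3:**
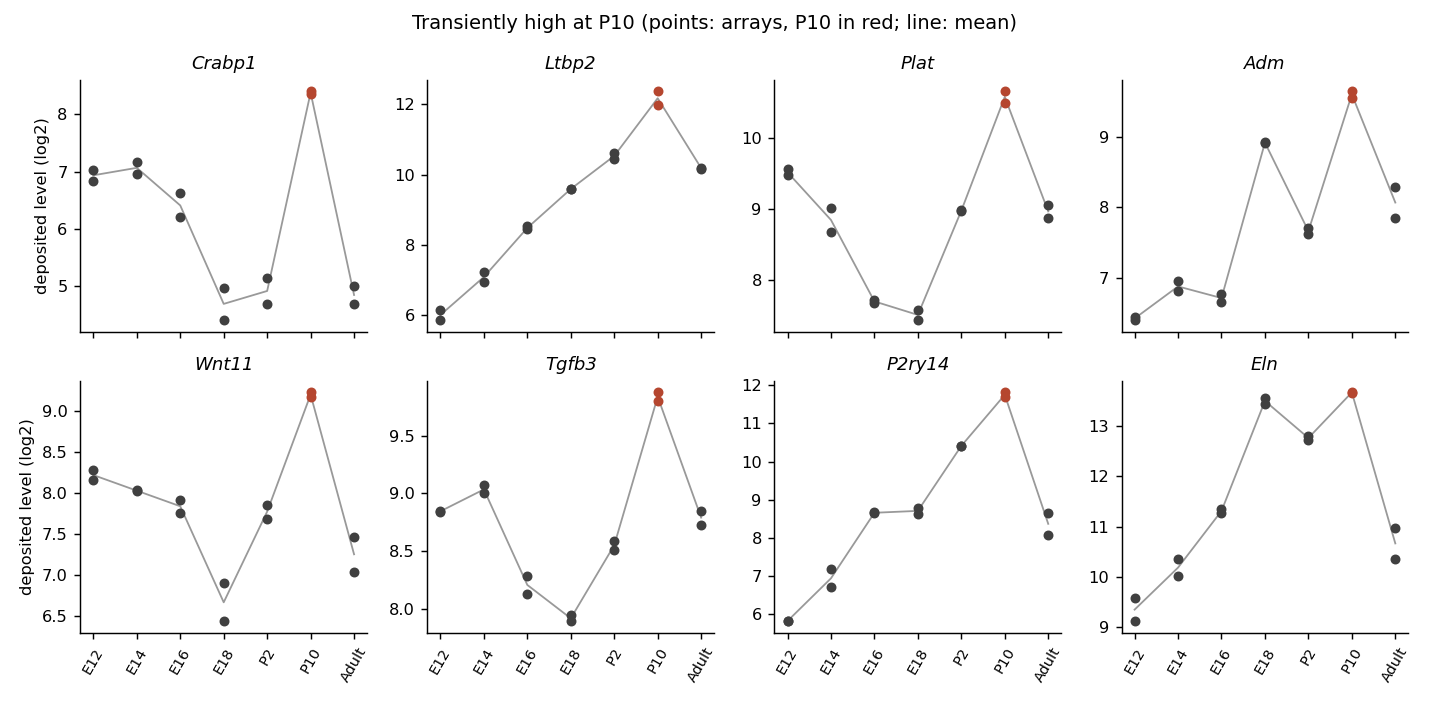
Log2 level of 8 transiently high genes over the 7 time points, with 1 point per array, the P10 arrays in red and a line through the means. P10 is the highest time point in all 8; Eln had a second high at E18 (mean 13.50), and Plat, Tgfb3 and Wnt11 were at their lowest at E18.

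Part of the septal matrix genes rose at P10. Of the elastic fibre list, 6 of 18 measured (19 of 22 were on the array) were transiently high and 0 low, with a median P10 minus neighbour mean of 0.72, against 0.01 over all measured genes, and 2 of the 18 lay below both neighbours. Ltbp2, a microfibril protein that guides elastogenesis, read 11.97 and 12.37 at P10, 10.45 and 10.61 at P2 and 10.17 and 10.20 in Adult, a size of 1.64. Loxl1, which crosslinks elastin, read 11.72 and 11.96 at P10, 10.96 and 10.92 at P2 and 10.25 and 10.21 in Adult. Both had climbed since E12, with E12 means of 6.01 for Ltbp2 and 7.99 for Loxl1. Eln, which encodes elastin itself, read 13.67 and 13.66 at P10, 12.72 and 12.80 at P2 and 10.97 and 10.36 in Adult. Its call was lost without P10 replicate 2, P2 replicate 1 or P2 replicate 2, and its difference from the neighbour mean was 1.80 to 2.10 over the 6 reduced sets. Ltbp3, a carrier of latent TGF-beta, was also high (size 0.77), whereas Fbln5, which tethers elastin to cells, differed from Adult (1.22, adjusted p = 6.57e-06) but not from P2 at this threshold (0.26, adjusted p = 0.268). Lox differed from neither (adjusted p = 0.759 against P2 and 0.755 against Adult, limma). The list held 3 calls without P2 replicate 1.

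The collagen list held 12 high and 0 low of 30 measured, with a median difference of 0.52. Col4a2, a chain of the basement membrane, read 12.92 and 13.11 at P10, 12.34 and 12.40 at P2 and 12.29 and 12.34 in Adult. It was the one member of this list that kept its call without any one array, since the 12 calls fell to 1 without P10 replicate 2 and to 2 without P2 replicate 1 or P2 replicate 2. Col1a2, a chain of fibrillar type I collagen, read 13.96 and 14.00 at P10, 13.50 and 13.50 at P2 and 12.79 and 12.66 in Adult. It lost its call without any of those 3 arrays. P10 exceeded both neighbours in 21 of the 30 and fell below both in 3. Both P10 arrays lay above all 4 neighbour arrays in 19 (against 14.6% of measured genes) and below them in 2 (against 15.1%). Bmp1, the protease that trims procollagen, was high by 0.66 over P2 and 1.59 over Adult, with the call lost without P10 replicate 2 or P2 replicate 2.

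Of 15 measured matrix proteases and inhibitors 4 were high and 0 low, and 2 lay below both neighbours. Plat, the tissue plasminogen activator, read 10.66 and 10.50 at P10, against 8.99 and 8.97 at P2 and 9.06 and 8.88 in Adult. The P2 and Adult means of this gene were 8.98 and 8.97, and P10 stood 1.60 ± 0.10 above their mean (SE; adjusted p = 6e-07, limma). Mmp2, a gelatinase, read 12.03 and 11.99 at P10, 11.44 and 11.42 at P2 and 10.51 and 10.59 in Adult. Adam19 was also high (size 0.68). Among 24 measured matrix glycoproteins and proteoglycans 5 were high and 0 low. Thbs2, a matricellular regulator of collagen fibrils, read 8.49 and 9.16 at P10, 7.55 and 7.59 at P2 and 6.66 and 6.82 in Adult. It was the single member of that list to keep its call without any one array, and the list held 2 calls without P10 replicate 1 or P2 replicate 1 and 3 without P10 replicate 2 or P2 replicate 2. Of 13 measured genes with an Adamts symbol, a family of secreted proteases gathered after the values were seen, 5 were high; Adamts8 and Adamts10 rose by at least 0.78 and 0.83 over either neighbour, and the family held 3 calls without P10 replicate 2, P2 replicate 1 or P2 replicate 2.

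The list of alveolar myofibroblast genes held 10 high and 0 low of 18 measured (55.6%), and a median difference of 1.0. P2ry14, a receptor for UDP-glucose, read 11.68 and 11.82 at P10, 10.42 and 10.40 at P2 and 8.66 and 8.07 in Adult. Lgr6, an R-spondin receptor, read 7.81 and 8.5 at P10, 6.97 and 6.98 at P2 and 6.87 and 6.47 in Adult. The 2 P10 arrays of Lgr6 lay far apart, and it passed the level filter through P10 only. Wnt5a, a Wnt ligand of the mesenchyme, and Cdh4, a cadherin, were high by at least 1.01 and 0.92. Fgf18, a growth factor of the septal mesenchyme, read 8.92 and 9.25 at P10, 8.49 and 8.43 at P2 and 7.68 and 7.48 in Adult, and its call was lost without P10 replicate 2. Pdgfra, which receives the PDGF signal, was not transient: it read 11.55 and 11.52 at P10, above P2 (10.61 and 10.81) and below Adult (12.16 and 12.15). The list held 4 calls without P10 replicate 2, 5 without P2 replicate 2 and 6 without P2 replicate 1.

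**Figure D4:**
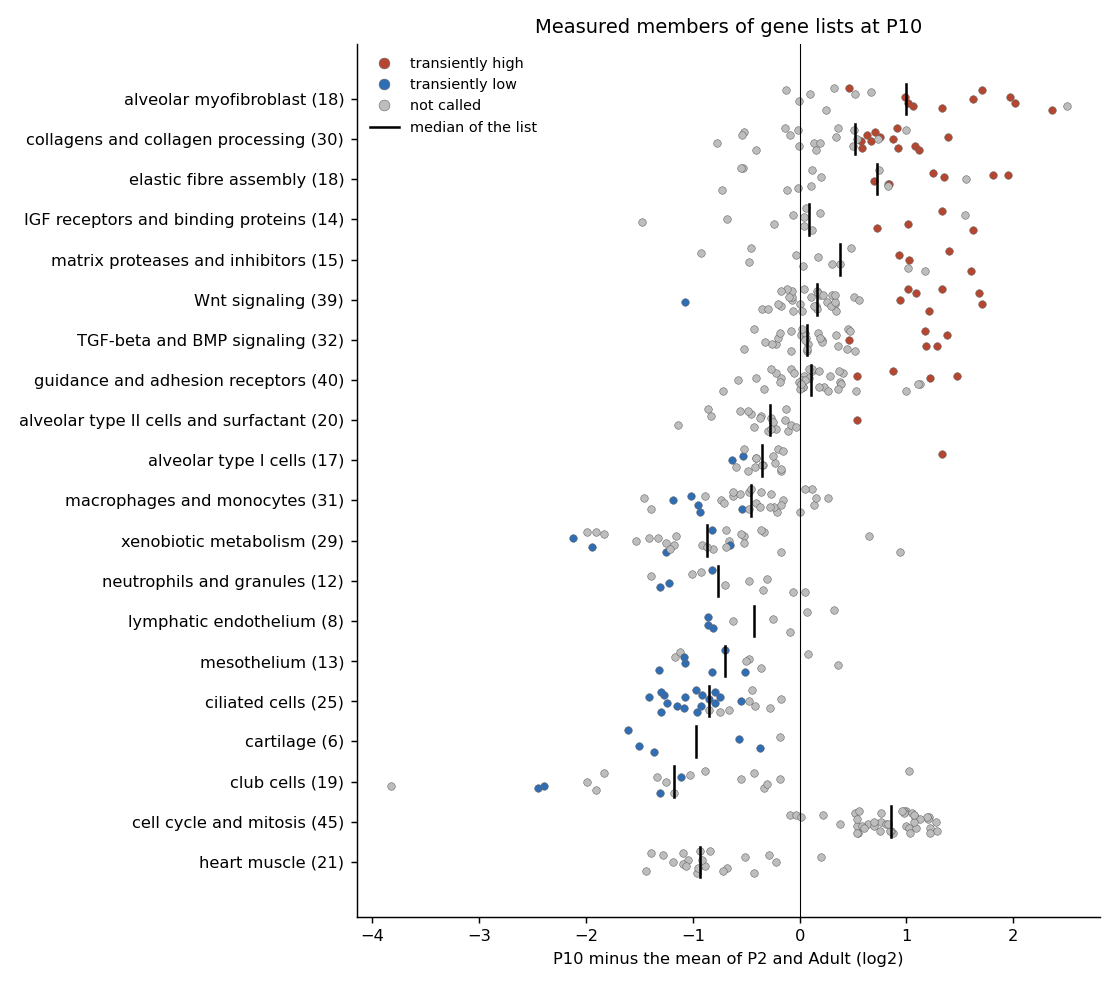
P10 minus the mean of P2 and Adult (log2) for the measured members of 20 gene lists, with 1 point per gene (red, transiently high; blue, transiently low; grey, not called) and a black bar at the list median. The medians are 1.0 for alveolar myofibroblast genes, -0.85 for ciliated cell genes and -1.18 for club cell genes, and the cell cycle and heart muscle lists are shifted (0.86 and -0.93) with 0 calls. The club cell median is -0.34 against P2 alone and -1.82 against Adult alone.

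Of 32 measured TGF-beta and BMP pathway genes 5 were high and 0 low (median difference 0.07), and 4 of these 5, Tgfb2, Tgfb3, Bmp2 and Bmp5, encode ligands. Tgfb3 read 9.80 and 9.88 at P10, 8.51 and 8.59 at P2 and 8.85 and 8.73 in Adult. Tgfb2 read 10.32 and 10.51 at P10, 9.79 and 9.60 at P2 and 8.65 and 8.46 in Adult, and Bmp2 was high by at least 0.77. The call of Bmp5 was lost without any array but Adult replicate 2, with a difference of 0.40 to 0.52, and the list held 3 calls without P10 replicate 2, P2 replicate 1 or P2 replicate 2. Of 39 measured Wnt pathway genes 7 were high and 1 low. Wnt11, a ligand of the planar polarity branch, read 9.17 and 9.23 at P10, 7.69 and 7.86 at P2 and 7.47 and 7.04 in Adult. Dkk3, a secreted Dickkopf family protein, was high by at least 0.70, and Rspo1, an R-spondin, was low by at least 0.77. The Wnt list held 4 high calls without P10 replicate 2 or P2 replicate 2.

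Fgfr1, a receptor for fibroblast growth factors, was high at P10 (9.54 and 9.80, against 8.61 and 8.57 at P2 and 8.78 and 8.84 in Adult), and Fgfbp1, a carrier that releases them from matrix, was low (8.24 and 8.23, against 9.63 and 9.45 at P2 and 9.43 and 9.27 in Adult). The 2 genes moved in opposite directions. In all, 3 of 19 measured FGF pathway genes were high and 1 low, and 1 was high without P10 replicate 2. Of 14 measured IGF receptors and binding proteins 4 were high and 0 low, but 0 of them were called without P10 replicate 2 and 2 without P2 replicate 1 or P2 replicate 2. Igfbp2, an IGF binding protein, was 2.05 above P2 and only 0.61 above Adult, where the 2 arrays read 9.62 and 10.48. Its call was lost without P10 replicate 1, P10 replicate 2 or Adult replicate 1. Of 14 measured Hedgehog genes 1 was high and of 19 Notch genes 1 was low; neither call held without P10 replicate 1, P2 replicate 1 or P2 replicate 2, nor the Hedgehog call without P10 replicate 2. Of 15 measured retinoic acid genes Crabp1 was high and Aldh1a2, which makes retinoic acid, was low (7.75 and 7.26 at P10, 8.13 and 8.35 at P2, 8.35 and 8.47 in Adult). Aldh1a2 lost its call without P10 replicate 2 or P2 replicate 2, with a difference of -0.58 to -1.06.

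Rgs5, a signaling inhibitor typical of pericytes, read 10.89 and 11.35 at P10, 9.52 and 9.40 at P2 and 10.07 and 9.0 in Adult. Pdgfrb, the PDGF receptor of mural cells, read 11.64 and 12.11 at P10, 10.86 and 10.92 at P2 and 11.06 and 11.17 in Adult. These were the 2 high genes among 14 measured pericyte genes, and Cspg4, another marker of these cells, differed from neither neighbour at this threshold (adjusted p = 0.233 and 0.293). Adm, which encodes the vasodilator adrenomedullin, read 9.65 and 9.56 at P10, against 7.62 and 7.71 at P2 and 8.29 and 7.85 in Adult. Agt, the precursor of angiotensin, read 10.70 and 10.78 at P10, 9.50 and 9.34 at P2 and 7.53 and 6.65 in Adult. Ednrb, an endothelin receptor, and Npr3, the clearance receptor for natriuretic peptides, went the other way and were low by at least 0.48 and 0.55. Of 37 measured endothelial genes 3 were high (8.11%) and 1 low, and 1 was high without P10 replicate 2 or P2 replicate 1. The endothelial transcription factor Sox17 was one of the 3 (11.28 and 11.30 at P10, 10.53 and 10.56 at P2, 10.31 and 10.35 in Adult).

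Hox genes of the trunk were a further group, chosen after the values were seen. Of 9 measured, 4 were high and 0 low. Hoxb6 read 8.05 and 8.04 at P10, 7.35 and 7.25 at P2 and 6.93 and 6.75 in Adult, and its E12 mean of 10.03 was higher than at P10. Hoxb2 was high by at least 0.53 and Hoxb3, by 0.61 over P2, lost its call without P10 replicate 2, P2 replicate 1 or P2 replicate 2. Both had fallen before birth, with E18 means of 6.94 for Hoxb6 and 8.78 for Hoxb2. The group held 2 calls without P10 replicate 2, P2 replicate 1 or P2 replicate 2.

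Several of the largest falls were in genes of the airway epithelium. Scgb3a1, a secretoglobin of airway secretory cells, read 10.20 and 9.79 at P10, against 12.61 and 12.11 at P2 and 12.84 and 12.22 in Adult. P10 minus the neighbour mean was -2.45 ± 0.18 (SE; adjusted p = 1.93e-06, limma), at least 5.16-fold under either neighbour. Reg3g, an antibacterial lectin, read 7.16 and 6.94 at P10, 9.45 and 8.5 at P2 and 10.20 and 9.61 in Adult. Muc4, a membrane mucin, read 4.24 and 4.38 at P10, 6.38 and 6.04 at P2 and 7.17 and 7.64 in Adult, so that it passed the level filter through Adult only. Ltf (lactoferrin) and Aldh1a7 were low by at least 1.21 and 0.95. Scgb3a1, Reg3g, Ltf and Aldh1a7 were the 4 low genes among 19 measured club cell genes with 0 high, and all 4 calls held without any one array. The list median difference of -1.18 came mostly from Adult, since the median was -0.34 against P2 and -1.82 against Adult. At an adjusted p under 0.05 (limma) 4 of the 19 were below P2 and 15 below Adult. The main club cell product Scgb1a1 was not called (14.60 and 14.62 at P10, 14.60 and 14.66 at P2, 14.99 and 14.91 in Adult), and its values lay close to the top of the scale.

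**Figure D5:**
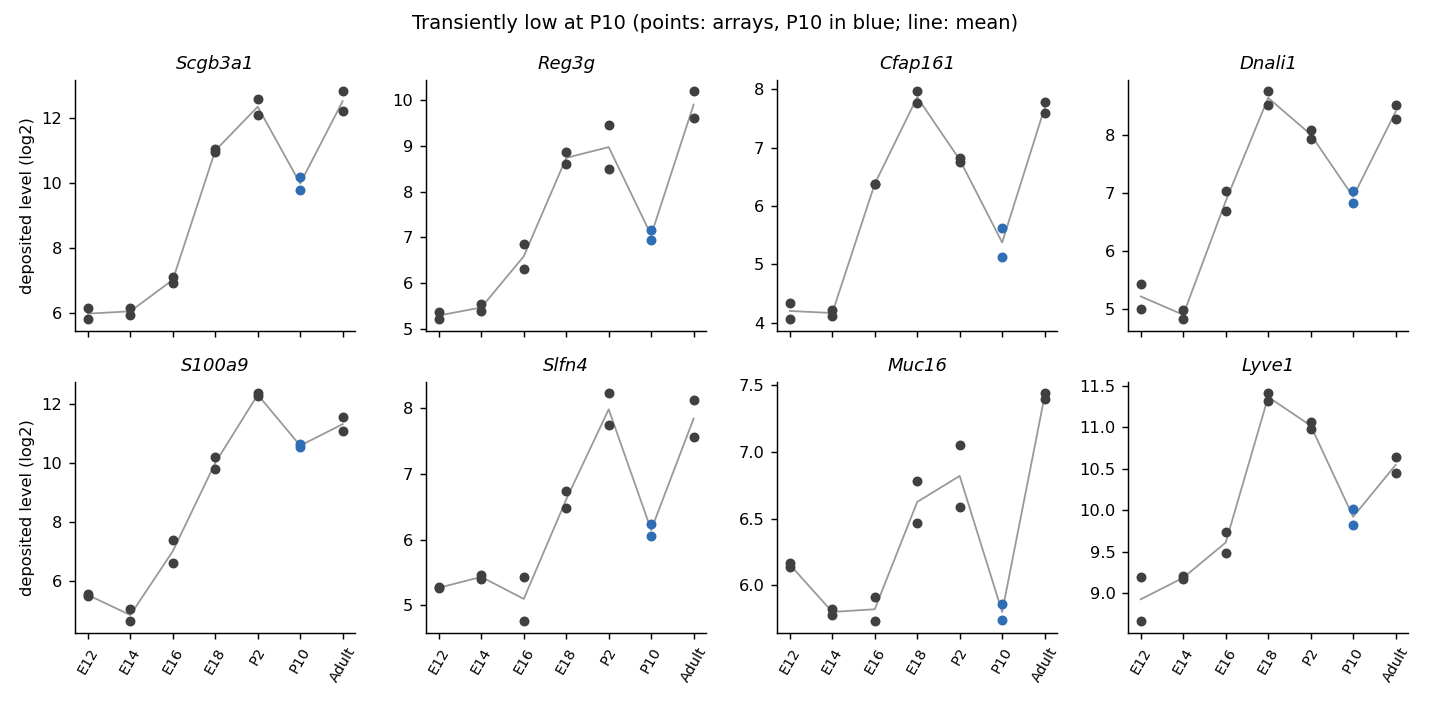
Log2 level of 8 transiently low genes over the 7 time points, with 1 point per array, the P10 arrays in blue and a line through the means. P10 forms a dip between P2 and Adult in all 8; Scgb3a1, Cfap161 and Dnali1 had risen before birth, and Muc16 at P10 was at the level of E14 and E16.

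Of 25 measured ciliated cell genes (33 of 35 were on the array) 17 (68.0%) were transiently low and 0 high, and P10 was below both neighbours in all 25. Both P10 arrays lay below all 4 neighbour arrays in 24 of them, against 15.1% of measured genes. The list median at P10 was 6.83 and 6.98, so some members passed the level filter of 7 only through P2 or Adult. For such members the filter itself favours low calls. Dnali1, an inner dynein arm light chain, read 6.83 and 7.04 at P10, 7.92 and 8.09 at P2 and 8.52 and 8.27 in Adult. Dynlrb2, a dynein light chain, read 8.67 and 9.08 at P10, 10.03 and 9.94 at P2 and 10.50 and 10.02 in Adult. Ccdc153 read 7.25 and 7.41 at P10, 8.29 and 8.12 at P2 and 9.42 and 9.14 in Adult. Capsl and Mlf1 were also called low. Cfap161 and Iqcg, a pair of axonemal proteins, were among the 15 largest falls with sizes of 1.42 and 1.4. Both passed the level filter through Adult only, with P2 means of 6.79 and 6.43. Iqcg lost its call without Adult replicate 1, with a difference of -1.57 to -1.79. Foxj1, the factor that sets the motile cilia program, read 6.76 and 6.98 at P10, 7.30 and 7.22 at P2 and 8.02 and 7.93 in Adult and differed from Adult only (adjusted p = 0.000591, against 0.28 for P2, limma). The list held 10 calls without P2 replicate 1 and 11 without P10 replicate 1.

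Promoters of motile cilia genes are known to carry the X-box bound by RFX factors, whose half-site is GTTGCC. The letters GTTGCC, or GGCAAC on the other strand, were searched in the 250 bases before each listed start site (RefSeq, GRCm38.p6). They were found in 6 of the 13 transiently low ciliated cell genes with a promoter entry (46.2%), in 2 of 18 transiently high elastic fibre, collagen and myofibroblast genes (11.1%), in 11.8% of all 27025 genes with an entry and in 12.5% of the measured ones. The letters were chosen after values were seen, and 3 other motifs were searched on both strands in the same windows: GTAAACA was in 7.69% of these 13 genes, 3.54% of all and 2.70% of measured genes, TATAAA in 7.69%, 14.3% and 7.90%, and GGGCGG in 53.8%, 35.4% and 64.9%, and none of the 4 was tested. These 6 stretches are shown because they come from low genes of 1 shared program; each is written 5′ to 3′ on the strand of its gene, with the matches in capitals and 35 bases on each side, or fewer where the start site is near.
Dynlrb2: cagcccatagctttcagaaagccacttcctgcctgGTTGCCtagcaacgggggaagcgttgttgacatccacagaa
Mlf1: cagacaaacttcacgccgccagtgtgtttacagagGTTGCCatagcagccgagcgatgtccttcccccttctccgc
Ccdc153: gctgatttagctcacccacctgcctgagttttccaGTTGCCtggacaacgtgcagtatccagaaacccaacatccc
Pifo: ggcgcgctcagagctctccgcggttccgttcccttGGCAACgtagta
Tekt1: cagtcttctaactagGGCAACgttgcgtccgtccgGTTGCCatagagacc
Tekt2: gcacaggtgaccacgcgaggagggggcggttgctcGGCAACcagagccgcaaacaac
The stretches lie at Dynlrb2 chr8:116504929-116505004 (+), Mlf1 chr3:67373957-67374032 (+), Ccdc153 chr9:44240490-44240565 (+), Pifo chr3:106001498-106001544 (-), Tekt1 chr11:72361883-72361932 (-), Tekt2 chr4:126325689-126325745 (-). Tekt1 holds 1 match on each strand, and the match ended between 6 (Pifo) and 146 bases (Ccdc153) before the start site. A match is a description of letters and not evidence of binding. Of these 6 genes Pifo lost its call without P10 replicate 1, P10 replicate 2, P2 replicate 1 or P2 replicate 2, and Tekt1 without Adult replicate 1.

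Genes of airway cartilage moved the same way, and their part in the fall of airway genes was not tested. Of 6 measured cartilage genes (of 21) 5 were called low: Chad, Col9a1, Cytl1, Mia and Sox6. The list median at P10 was 6.71 and 6.70, under the level filter of 7. Mia and Col9a1 passed that filter through P2 only, so the filter itself favours low calls in this list. The call of Chad was lost without P10 replicate 1 or P2 replicate 1, that of Cytl1 without any P10 or P2 array, and that of Sox6 without any array but Adult replicate 2. Mia read 6.47 and 6.49 at P10, 7.15 and 7.15 at P2 and 7.03 and 6.87 in Adult. Col9a1, a chain of cartilage collagen, read 5.39 and 5.08 at P10, 7.81 and 7.23 at P2 and 6.02 and 5.86 in Adult. Its fall against Adult was the smaller one (0.71), and the call was lost without P10 replicate 2, Adult replicate 1 or Adult replicate 2. Acan, the defining proteoglycan of cartilage, read 6.21 and 6.12 at P10, 6.34 and 6.26 at P2 and 6.56 and 6.49 in Adult. The list held 2 calls without P10 replicate 1, P10 replicate 2 or P2 replicate 1, and 3 without P2 replicate 2 or Adult replicate 1.

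Of 13 measured genes of the mesothelium, the cell layer of the pleural surface, 6 were low and 0 high, with a median difference of -0.70. Muc16, a mesothelial mucin, read 5.74 and 5.86 at P10, 7.05 and 6.59 at P2 and 7.44 and 7.40 in Adult. It passed the level filter through Adult only. Upk3b, a uroplakin, read 9.40 and 8.89 at P10, 10.00 and 10.15 at P2 and 10.39 and 10.38 in Adult. The keratin gene Krt18, which is also expressed by lung epithelium, was low by at least 0.62. Rspo1 and Aldh1a2, described above, were also among the 6.

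Genes of epithelial junctions and polarity, a group gathered after the values were seen, were low in 23 of 57 measured and high in 0 (median difference -0.48). Cldn10, a claudin, read 8.15 and 8.25 at P10, 9.54 and 9.52 at P2 and 9.37 and 9.11 in Adult. Dsp, the plaque protein of desmosomes, read 9.17 and 9.38 at P10, 9.86 and 9.94 at P2 and 10.43 and 10.43 in Adult. Klf5, an epithelial transcription factor, read 8.68 and 8.66 at P10, 9.69 and 9.52 at P2 and 9.59 and 9.49 in Adult. Cldn10, Dsp and Klf5 were all called low. Cdh1, which encodes E-cadherin, lay below both neighbours (by 0.26 and 0.87) but did not pass against P2 (adjusted p = 0.234, limma). The group held 9 low calls without P2 replicate 1, 12 without P10 replicate 2 and 13 without P2 replicate 2. Of 20 measured alveolar type II and surfactant genes 0 were low and 1 was high, and of 17 measured type I genes 2 were low and 1 was high; the high type II call held only without P10 replicate 1, and the type I counts were 1 low without either P10 array, P2 replicate 1 or Adult replicate 2 and 0 without P2 replicate 2, and 0 high without either P10 array or Adult replicate 1. Sftpb read 13.06 and 12.51 at P10, 12.92 and 12.90 at P2 and 13.42 and 13.37 in Adult. P10 nevertheless lay below both neighbours in 15 of the 20 type II genes and 13 of the 17 type I genes, with median differences of -0.28 and -0.35. Both P10 arrays lay below all 4 neighbour arrays in 12 and 8 of them, a condition that 15.1% of measured genes met. In the fit of only the 6 arrays 2 type II genes were low.

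Many leukocyte genes were lower at P10 than at both neighbours. Slfn4, a Schlafen gene of myeloid cells, read 6.24 and 6.06 at P10, 8.23 and 7.74 at P2 and 8.13 and 7.56 in Adult. Csf2rb, the common receptor chain for GM-CSF, read 8.03 and 7.86 at P10, 8.65 and 8.63 at P2 and 9.08 and 9.23 in Adult. Ctss, a lysosomal protease of antigen-presenting cells, read 9.76 and 9.53 at P10, 10.27 and 10.34 at P2 and 10.78 and 10.95 in Adult. In Csf2rb and Ctss the dip at P10 lay within a climb that began at E12 (means of 5.13 and 7.12). Of 31 measured macrophage genes 5 were low and 0 high, with 2 without P10 replicate 2 or P2 replicate 2, 3 without P2 replicate 1 and 8 without P10 replicate 1. Of 12 measured neutrophil genes 3 were low, with a median difference of -0.76, one of them Ltf, and the count was 1 without P10 replicate 2. S100a9, a neutrophil alarmin, read 10.63 and 10.53 at P10, 12.35 and 12.25 at P2 and 11.55 and 11.06 in Adult. Its call was lost without P10 replicate 1, P10 replicate 2 or Adult replicate 1. A wider group of leukocyte signaling and phagocyte oxidase genes, gathered after the values were seen, held 37 low and 0 high of 55, and 13 without P10 replicate 2, 14 without P2 replicate 1 and 20 without P2 replicate 2. Of 14 measured T and NK cell genes 0 were called by limma (1 low at unadjusted p under 0.05) and of 9 B and plasma cell genes 0 (2 low), whereas 11 and 7 of them were below Adult.

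The largest fall of all was that of Ear3, an eosinophil-associated ribonuclease, at 7.06 and 7.02 at P10, 10.85 and 10.95 at P2 and 11.31 and 11.56 in Adult, at least 14.5-fold. Ear3 belongs to a family of near-identical genes and its probe set can take up other members, so the signal cannot be given to 1 gene. Ang3, of the related angiogenin ribonucleases, read 4.16 and 3.93 at P10, 6.29 and 6.06 at P2 and 7.14 and 7.40 in Adult, with the same reservation. The other large falls were Fam47e, Pon1, Lbp, Ppil6, Ifitm1, Wfdc21 and Klra17, with sizes between 1.25 and 1.83. Ang3 and Klra17 passed the level filter through Adult only, with P2 means of 6.17 and 6.58. Pon1, a paraoxonase, lost its call without P2 replicate 1 (difference -1.99 to -2.24 over the reduced sets). Lbp, which binds bacterial lipopolysaccharide, lost it without P10 replicate 2, P2 replicate 1 or P2 replicate 2 (-1.13 to -1.79), and its Adult arrays read 11.61 and 10.30.

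Of 8 measured lymphatic markers, Lyve1, Mmrn1 and Reln were low and 0 were high. The list as a whole did not dip, with a median of 0.01 against P2 and -0.52 against Adult. P10 lay below both neighbours in 4 of the 8 and above both in 1, Nr2f2 (by 0.40 and 0.25). Lyve1, the hyaluronan receptor of lymphatic endothelium, read 9.82 and 10.02 at P10, 10.98 and 11.06 at P2 and 10.45 and 10.64 in Adult. Without P10 replicate 1 none of the 3 was called. Lyve1 was also lost without Adult replicate 2, Mmrn1 without Adult replicate 1, and Reln without P2 replicate 1 or P2 replicate 2.

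The list of glucocorticoid-induced genes also held the receptor gene Nr3c1 and the steroid enzyme genes Hsd11b1 and Hsd11b2. Of its 30 measured members 4 were low and 1 high, with a median difference of -0.38. Fkbp5, a chaperone of the glucocorticoid receptor, read 7.23 and 7.42 at P10, 8.46 and 8.35 at P2 and 8.22 and 7.89 in Adult, and its highest mean was 10.49 at E18. Klf15 read 7.45 and 7.59 at P10, 8.58 and 8.30 at P2 and 9.26 and 9.42 in Adult, and its highest mean of 10.35 was also at E18. Klf15, Errfi1 and Tsc22d3 lost their call without P2 replicate 1, and Tsc22d3 without P10 replicate 2 as well. The high gene was Hsd11b2, which inactivates corticosterone in mice, at 8.47 and 9.04 at P10, 7.72 and 7.57 at P2 and 6.99 and 6.88 in Adult, with the call lost without P10 replicate 2 or P2 replicate 2. The list held 1 low call without P2 replicate 1.

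Of 29 measured xenobiotic genes 5 were low and 0 high, and without P2 replicate 1 the count was 0 and without P10 replicate 1 or P2 replicate 2 it was 3. Of 29 glycolysis and hypoxia genes 4 were low and Adm was high. Aldoc, a glycolytic aldolase, read 7.06 and 7.00 at P10, 7.72 and 7.67 at P2 and 7.87 and 7.64 in Adult, and it was the single low gene of this list to keep its call without any one array. Without P10 replicate 1, P2 replicate 1 or P2 replicate 2 the list held 1 low call and without P10 replicate 2 it held 2. Of 28 fatty acid and phospholipid genes 4 were low, and 0 without P2 replicate 1, 1 without P10 replicate 2 or P2 replicate 2 and 2 without P10 replicate 1, Adult replicate 1 or Adult replicate 2. Among 32 measured channels, pumps and vasoactive genes 6 were low and 3 high. Aqp4, a water channel, was low at 5.63 and 6.65 at P10, 7.49 and 7.45 at P2 and 7.36 and 7.12 in Adult. Its 2 P10 arrays lay far apart.

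Other lists held few calls. Of 40 measured guidance and adhesion receptors 4 were high and 0 low, and without P10 replicate 2 or P2 replicate 1 the count was 0 and without P2 replicate 2 it was 1. Smooth muscle contraction had 2 high of 19, lipofibroblast genes 2 high and 1 low of 19, lung transcription factors 3 high and 3 low of 36, thyroid hormone response 1 high of 7 and PDGF ligands and receptors 1 high of 5, which was Pdgfrb. Interferon response had 2 low of 30, immediate early genes 2 low of 23, heat shock 2 low of 21, circadian genes 1 low of 19, sterol synthesis 1 low of 20, antigen presentation 1 low of 15, chemokines and complement 2 low of 18, and mast cells and eosinophils 1 low of 8. Transcription factors had 0 high and 1 low without P2 replicate 1, and 1 high without P10 replicate 2 or P2 replicate 2. Lipofibroblast genes had 0 calls without P10 replicate 1, 1 high and 0 low without P10 replicate 2 or either P2 array, and 1 high without Adult replicate 1. Heat shock genes had 0 calls without either P10 or either P2 array and 1 without either Adult array, and chemokines and complement had 1 without either P10 or either P2 array. Smooth muscle had 1 without P2 replicate 2, and interferon response had 1 without P10 replicate 2 or P2 replicate 1. There were 0 calls for immediate early genes without P10 replicate 2 or P2 replicate 1, for circadian and mast cell genes without P10 replicate 1 or P2 replicate 1, and for thyroid hormone response and sterol synthesis without P2 replicate 1. Red blood cell genes had 1 high of 7 (Gypc) and skeletal muscle 1 low of 2 (Eno3, which lost its call without any one of the 6 arrays). By limma 0 genes were called among 24 antioxidant genes (4 low at unadjusted p under 0.05), 20 fatty acid oxidation genes (2 low), 19 imprinted growth genes (1 high), 7 nerve and glia genes (1 low), 3 thymus genes (1 high), 36 respiratory chain genes, 27 ribosome biogenesis genes and the 1 liver and esophagus gene measured (0 in each of the last 3).

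Some lists shifted at P10 without a transient call, and their 2 neighbours show how. Of 45 measured cell cycle genes 42 were above Adult and 0 above or below P2 at an adjusted p under 0.05, and the median P10 minus P2 was -0.05 and P10 minus Adult 1.82 (0 transient calls by limma, 1 high at unadjusted p under 0.05). Top2a, a DNA topoisomerase of dividing cells, read 9.56 and 9.86 at P10, 9.97 and 9.99 at P2 and 7.38 and 7.24 in Adult. Of 36 DNA replication genes 29 were above Adult and 7 below P2, with 0 transient at an adjusted or unadjusted p under 0.05. Among heart muscle genes P10 lay below both neighbours in 17 of 21, with a median difference of -0.93. Both P10 arrays lay below all 4 neighbour arrays in 16, against 15.1% of measured genes. Still, 0 heart genes were called by limma in the fit of all 14 arrays (4 low at unadjusted p under 0.05). The 2 E16 arrays differed widely in heart genes, with list medians of 9.70 and 7.08, and both enter the spread used in every comparison. Without the E16 arrays, an alternative chosen after seeing the data, 13 of the 21 were transiently low, and with only the 6 arrays of P2, P10 and Adult 11 were. Myh6, a myosin heavy chain of heart muscle, read 9.83 and 10.18 at P10, 11.05 and 10.80 at P2 and 11.32 and 11.20 in Adult. Among 7 measured fat genes 0 were called (1 low at unadjusted p under 0.05), and 3 were low without the E16 arrays. Adipoq, the defining adipocyte gene, read 3.76 and 3.55 at P10, 3.41 and 3.42 at P2 and 7.72 and 6.74 in Adult.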

How the data were processed

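The authors deposited log2 expression values of Affymetrix whole-genome mouse arrays, 1 value per probe set and array. The submitters' processing notes name Partek 6.4 and GCRMA (no version given), whereas the methods name Robust Multichip Average. The summarization behind the deposited values is therefore not settled. Differences between low values can depend on that choice, which was not tested. Array medians lay between 6.55 and 6.62. The values were used as deposited.

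After 64 control probe sets were left out, 45037 remained, of which 34945 had 1 symbol in the platform annotation, 932 several and 9160 none; 34741 were found by Entrez identifier in RefSeq and 0 were renamed. In R 4.3.3 with limma 3.58.1, 1 mean per time point was fitted to all 14 arrays with no replicate block (residual df 7, prior df 6.04), and p was adjusted by Benjamini-Hochberg over all 45037. The level filter of 7 is the methods' Max threshold. The fit was tested on simulated data. SE and p are from this fit. Genes named are the 15 largest high and 15 largest low transient genes by size (clone and predicted symbols skipped) and up to 6 called members per gene list, with uncalled members given as values; others are said to have been chosen after their values were seen. The members and gene lists were chosen with earlier results of these data known. Alternatives changed the filter, arrays, scaling, moderation, probe set choice, size threshold and replicates.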

Additional observations from a re-analysis of the deposited data

How the results depend on the processing

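As reported, 374 genes were transiently high and 383 transiently low. Requiring both differences to exceed the methods' Range threshold of 1.2 left 23 and 18. Without moderation of the spread 262 were high and 252 low. Leaving out 1 of the 6 arrays gave 138 to 425 high and 143 to 350 low genes; with 2 arrays a group the lone array left is assumed to vary like the other groups. All other alternatives were within 1.5 times: no filter 438 and 474, only the 6 arrays 288 and 335, median centring 396 and 348, a second quantile normalization 408 and 394, trend and robust moderation 471 and 458, the mean of all probe sets 395 and 421. A further pair was chosen after seeing the data: without the E16 arrays 359 and 387, and without chromosomes X and Y 368 and 370. With the replicate block 330 genes were high and 351 low, of which 328 and 343 were among those reported. The replicate numbers share only a number: the differences between replicate 1 and 2 correlated between time points from -0.28 to 0.20, over 0.1 in 3 of 21 pairs. Of 158 named genes 15 lost their call with the block. None changed direction under any of these alternatives, but most of them could not reverse one. Both P10 arrays lay beyond all neighbouring arrays in every called gene, so leaving out 1 array keeps the sign. Changes of filter, size threshold and moderation leave the difference as it was. The 2 arrays per time point set the precision, and no probe detection calls were used.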
